A study of Mus musculus with 2 samples.

Results

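Among the GL261 neurosphere cells, 100 cells were set apart by their summed UMIs (unique molecular identifiers) of 5 genes, Nupr1, Slc7a11, Cox6a2, Steap1 and Tenm4. They were the highest 100 of 4276 kept neurosphere cells, out of 4951 called by Cell Ranger and 10715 in both libraries of the series. The score of a cell was its UMIs of the 5 genes divided by its UMIs on all genes left after mitochondrial and ribosomal genes were dropped, and cells were kept above a minimum number of UMIs and of detected genes. The comparison group was the bottom 50% of kept cells by the score, 2138 cells. Since 3261 of the kept cells had a score of 0, every cell of the bottom 50% held no UMI of the 5 genes, and ties were broken by the order of the cells in the matrix.

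GL261 is a mouse glioma line of C57BL/6 origin, listed as an astrocytoma, and the cells of both libraries carried no engineered allele that the labels name. The neurosphere library came from cells cultured for 12 days with 20 ng/ml EGF, 20 ng/ml FGF and B-27, which form free-floating aggregates. The adherent library came from the same line in the same serum medium without these additions. Both cultures were dissociated with trypsin, the neurospheres also by trituration, and frozen in medium with DMSO before 10x Genomics 3’ libraries were made. With 1 library per culture, no replicates and 1 cell line, no test between cells or cultures was possible, and all 95% intervals below (exact Poisson for CPM, exact conditional for log2 folds, exact binomial for shares) cover counting error only.

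The integrated stress response is a pathway in which kinases that sense unfolded protein, amino acid shortage, haem shortage or double-stranded RNA phosphorylate the translation factor eIF2α. General translation then falls while Atf4 mRNA is translated more, and the ATF4 protein, with C/EBP partners, activates genes for amino acid synthesis, amino acid uptake and tRNA charging, along with Ddit3, which encodes CHOP. Nupr1 encodes a small chromatin protein induced by stress. Slc7a11 encodes xCT, the cystine and glutamate antiporter that feeds glutathione synthesis and is a target of both ATF4 and NRF2. Tenm4 encodes a teneurin first described as a gene downstream of CHOP. Cox6a2 encodes the heart and muscle form of a cytochrome c oxidase subunit, and Steap1 a member of a metalloreductase family.

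In GRCm38 with the GENCODE annotation, Nupr1 lies on chromosome 7 from 126623249 to 126630861 on the minus strand, and Cox6a2 on the same chromosome and strand from 128205435 to 128206387. Tenm4 is also on chromosome 7, on the plus strand from 96171246 to 96911093. Slc7a11 lies on chromosome 3 from 49892526 to 50443614 and Steap1 on chromosome 5 from 5736317 to 5749326, both on the minus strand. All 5 are protein-coding genes.

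The promoters of the rule genes and of stress response genes were searched for TGATGNAA, the core of the C/EBP-ATF response element, on both strands. The windows were those of RefSeq on GRCm38.p6, from 250 bases before to 50 bases after each start. Nupr1 and Slc7a11 held the core, Steap1 and Tenm4 did not, and Cox6a2 had no entry. The stretches are shown because these elements are where ATF4 is known to bind, with the matches in capitals and each sequence on the strand of its gene. The order of the stretches is chr7:126625497-126625656 (minus strand) for Nupr1, chr3:50443614-50443773 (minus strand) for Slc7a11, chr1:191183410-191183469 (minus strand) for Atf3 and chr2:119351023-119351082 (plus strand) for Chac1.
Nupr1: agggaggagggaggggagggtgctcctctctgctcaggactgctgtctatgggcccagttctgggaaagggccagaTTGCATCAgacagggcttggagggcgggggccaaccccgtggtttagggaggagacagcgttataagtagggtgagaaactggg
Slc7a11: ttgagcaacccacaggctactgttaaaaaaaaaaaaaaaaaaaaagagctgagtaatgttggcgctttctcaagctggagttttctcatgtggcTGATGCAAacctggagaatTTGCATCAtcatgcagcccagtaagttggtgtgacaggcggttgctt
Atf3: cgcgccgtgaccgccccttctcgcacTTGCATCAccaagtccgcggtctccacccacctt
Chac1: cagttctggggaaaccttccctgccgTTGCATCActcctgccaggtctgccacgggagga

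The match in Nupr1 was centred 106 bases before the RefSeq start and read TTGCATCA, the core on the opposite strand. This start is not the end of the longer GENCODE span given above, and the stretch lies within that span. Slc7a11 held 2 matches that face each other, centred 62 and 43 bases before the start. The core was in 3.97% of all 32851 windows and in 18 of the 61 windows (29.5%) that belong to the 5 lists of stress response genes described here, Nupr1 and Slc7a11 among them, where 49 of 65 genes had an entry by symbol. The 5 lists were made of genes known to belong to this response, so the higher share is no independent evidence. The core was in 1 of 17 windows of endoplasmic reticulum chaperone genes, in 1 of 25 windows of NRF2 targets, that of Slc7a11, and in 0 of 15 windows of G2/M genes. The other motif searched was TGACNNNGC, the core of the antioxidant response element bound by NRF2. This motif was in 12.4% of all windows, in 16 of the same 61 windows (26.2%) and in 7 of the 25 windows of NRF2 targets (28%). It was also in 4 of the 17 chaperone windows and, among the rule genes, in that of Tenm4. A match is a sequence in these letters only, and binding was not measured.

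The score of the members ran from 3.94 to 47.1 UMIs per 10000, with a median of 7.85. These are the values that chose them. At the edge, the cells ranked 96 to 100 had 4.04 to 3.94 UMIs per 10000 and the 5 cells next in rank had 3.94 to 3.75, so the limit did not fall at a gap. The members ranked 97 and 100 stood on 2 UMIs each. A member held 2 to 57 UMIs of the 5 genes, with a median of 10, and 95 members held more than 3.

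No rule gene was seen in every member. Cox6a2 was seen in 74 members with 446 UMIs, Nupr1 in 66 with 401, Tenm4 in 58 with 184, Steap1 in 52 with 153 and Slc7a11 in 30 with 113. Cox6a2 was the largest of the 5 in 39 members and Nupr1 in 37, while Slc7a11 was the largest in 3. The cells are therefore led by Cox6a2 and Nupr1 more than by Slc7a11. Of the 100 members, 15 held 1 rule gene, 29 held 2, 25 held 3, 23 held 4 and 8 held all 5. Cox6a2 and Tenm4 were seen together in 50 members and Nupr1 and Cox6a2 in 48, against 14 for Slc7a11 and Steap1, the least shared pair. These counts depend on how often each single gene was seen, so they do not show which genes go together. Within members, which were chosen by the sum, Pearson correlations of the levels ran from -0.18 (Nupr1 and Tenm4) to 0.15 (Cox6a2 and Steap1).

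**Figure D1:**
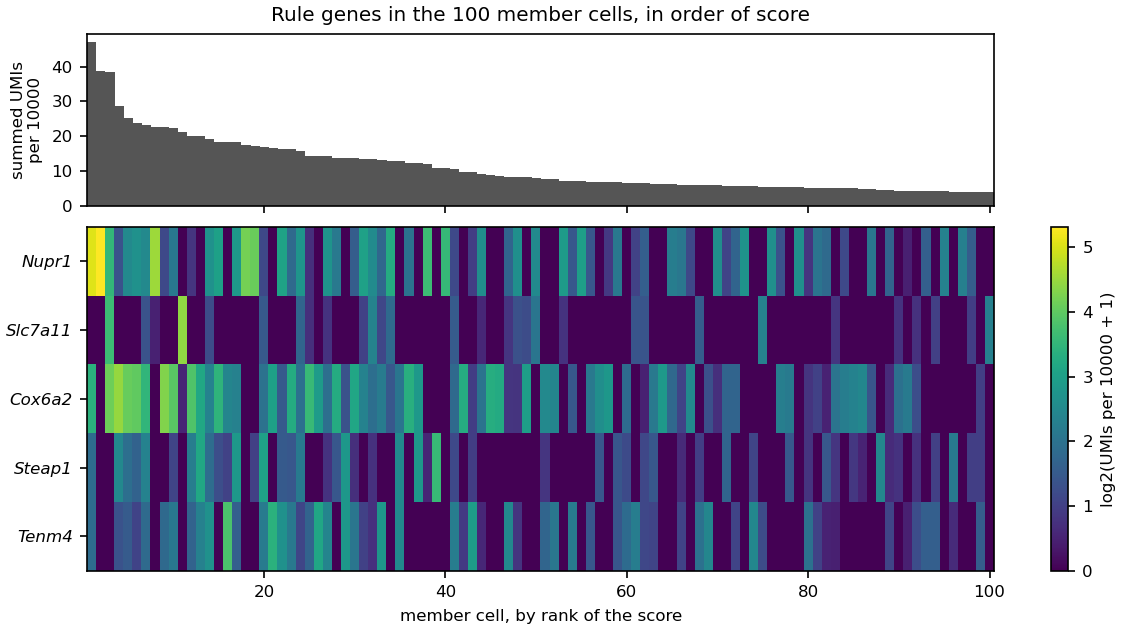
The upper panel gives the score of each of the 100 members in UMIs per 10000, in order of rank, and the lower panel the level of each rule gene in the same cells as log2(UMIs per 10000 + 1). Nupr1 and Cox6a2 fill most cells and Slc7a11 is seen in 30 of 100.

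The members of highest score differed in make-up. The first held 24 UMIs of Nupr1, 7 of Cox6a2, 2 of Steap1 and 2 of Tenm4 among 7430 UMIs. The second held 20 UMIs of Nupr1 and none of the other 4 genes among 5180. The eighth held 56 UMIs of Nupr1 and 1 of Slc7a11, and the eleventh held 45 of Slc7a11, which is 45 of the 113 UMIs of that gene in all members.

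As a description of how the genes go together, cells were ranked by 4 of the genes and the fifth was read in the top 100. Ranked without Nupr1, the top 100 neurosphere cells had 156 CPM (UMIs per 1000000) of Nupr1 against 7.24 in all other kept cells, a 21.6-fold difference (18.2 to 25.6). Cox6a2 stood at 278 against 4.12 CPM, 67.5-fold (57.2 to 79.7), and Tenm4 at 118 against 7.55 CPM, 15.6-fold (12.9 to 18.9). The levels of Steap1 were 87.6 and 7.20 CPM, 12.2-fold (9.73 to 15.1). For Slc7a11 they were 48.3 and 4.72 CPM, 10.2-fold (7.59 to 13.5). The 5 genes were chosen as a set with earlier results of these data known, so these ratios restate that choice and are no independent evidence. The top 100 cells by 4 genes shared 79 (without Nupr1) to 93 (without Slc7a11) cells with the members.

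In adherent cells the same readout gave smaller ratios at higher levels. The 5 genes were chosen to set apart neurosphere cells, which favours larger ratios there. Ranked by the other 4 genes, the top 100 adherent cells held 3.17-fold more Nupr1 than the rest (2.85 to 3.53), 4.001-fold more Cox6a2 (3.45 to 4.61) and 3.06-fold more Tenm4 (2.36 to 3.92). Steap1 was 1.98-fold higher (1.65 to 2.35) and Slc7a11 1.59-fold higher (1.10 to 2.22). Over all kept cells, Nupr1 stood at 172 CPM in the adherent library and 10.1 in the neurosphere library, Cox6a2 at 69.5 and 9.12, Steap1 at 86.1 and 8.64, Tenm4 at 29.2 and 9.62, and Slc7a11 at 28.3 and 5.54. Of 5051 kept adherent cells, 1803 (35.7%, interval 34.4 to 37.0) reached the lowest score of a member, against 100 of 4276 neurosphere cells (2.34%). A level of these genes that set apart few neurosphere cells was held by more than 1 in 3 adherent cells.

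Depth and mitochondrial share of the members lay near those of the comparison group. Their median was 10110 UMIs, from 4479 to 31217, against 11898 in the bottom 50%. Mitochondrial UMIs made up a median of 3.78% in members and 4.07% in the bottom 50%, and 1 member exceeded 10%. None of the 100 lay over the 95th percentile of UMIs in the library, the range where doublets would be sought. The score divides by the UMIs of a cell, which works against the deepest cells. The lack of members in that range therefore cannot tell whether doublets are among them. None of the 100 carried a barcode that occurs in both libraries, of which there were 12. No cell type in a library of 1 line could serve to measure free RNA of the rule genes.

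Other genes were compared by summing UMIs over the 100 members (1219121 UMIs) and over the 2138 cells of the bottom 50% (29354199 UMIs). A log2 ratio is that of the CPM of members to the CPM of the bottom 50% with 1 CPM added to each, and a gene counted as measured where the mean of both CPMs was at least 10. Of 9077 measured genes, 530 (5.84%) were more than 2-fold higher in members and 204 (2.25%) more than 2-fold lower, with the rule genes left out. A gene under 10 CPM in the lower group passed this filter through the other group alone and so had to differ, which held for 214 of the 530 and 53 of the 204. The higher genes were 72.2% of the 734 that passed the fold, 50.97% with TMM factors and 49.7% with median-ratio size factors. These factors moved the median log2 ratio of all genes from 0.05 to -0.13 and -0.14, and with each gene's highest cell left out of both groups the share was 54.6%. Of the 530 higher genes, 411 remained over 2-fold with their highest cell left out of both groups, and 127 were seen in at least 50 members.

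The regulators of the integrated stress response were higher together. Of 12 listed, 10 were more than 2-fold higher in members, against 5.84% of all measured genes, and the median log2 ratio was 2.32, against 0.05 over all genes. It lay between 1.82 and 2.51 under every alternative run. Ddit3, which encodes CHOP, stood at 486 CPM in members, 130 in the next 100 cells by score, 30.01 in the bottom 50% and 365 in all adherent cells. Its log2 fold over the bottom 50% was 4.02 (3.86 to 4.17), and it was seen in 79 members. With each cell thinned to 5000 UMIs, Ddit3 was seen in 68.0% of members and 14.1% of the bottom 50%.

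Atf3, a transcription factor induced by ATF4, stood at 185 CPM in members against 15.5 in the bottom 50%, a log2 fold of 3.57 (3.34 to 3.81). Ppp1r15a encodes GADD34, which directs the phosphatase that reverses eIF2α phosphorylation, and stood at 184 against 19.5 CPM, with 71 members positive. Cebpb, a partner of ATF4, stood at 701 against 103 CPM and was seen in 94 members. Sesn2 (166 against 24.2 CPM), Chac1, a glutathione-degrading enzyme (141 against 26.9) and Atf5 (235 against 46.8) followed. Atf4 itself, whose product is controlled largely at translation, stood at 606 against 303 CPM. Its log2 ratio of 1.00 fell short of 2-fold only through the added 1 CPM. Ddit4 stood at 252 against 128 CPM, a log2 ratio of 0.97.

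Genes that ATF4 and CHOP are known to induce outside the list of regulators were higher as well. Of 11 listed genes besides Nupr1 and Tenm4, which the score used, 7 were measured, and Fgf21, Stc2, Tnfrsf10b and Fam129a were below the filter. Adm2 was measured through the members alone, and of the other 6 genes 5 were more than 2-fold higher, with a median log2 ratio of 1.68. Gdf15, a secreted stress cytokine, was at 378 CPM in members, 153 in the next 100 cells, 19.5 in the bottom 50% and 318 in adherent cells. It was seen in 78 members, and in 69.1% of members and 7.14% of the bottom 50% after thinning. Its log2 fold was 4.28 (4.10 to 4.46), and no member held more than 6.94% of its UMIs. Adm2 (64.8 against 4.67 CPM), Vldlr (71.4 against 19.3), Bbc3, the pro-apoptotic gene for PUMA (139 against 42.5), Jdp2 (45.9 against 13.7) and the oxidoreductase gene Ero1l (322 against 108) followed, while Car6 stood at 83.7 against 70.7 CPM.

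Amino acid genes formed the next layer. Of 14 measured genes of amino acid synthesis, 9 were more than 2-fold higher in members, with a median log2 ratio of 1.15. Cth, which makes cysteine in the transsulfuration pathway, had the largest difference, 148 against 13.3 CPM, a log2 fold of 3.48 (3.22 to 3.74). The mitochondrial folate enzyme gene Aldh1l2 stood at 157 against 31.8 CPM and the proline gene Pycr1 at 69.7 against 17.2. Asns, which makes asparagine, stood at 263 against 132 CPM, short of 2-fold only through the added 1 CPM, and Psat1 at 158 against 159.

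Of 8 measured amino acid transporters other than Slc7a11, 5 were more than 2-fold higher, with a median log2 ratio of 1.16. Slc3a2, the heavy chain that pairs with xCT, stood at 665 CPM in members, 352 in the next 100 cells, 198 in the bottom 50% and 280 in adherent cells, and was seen in 93 members. The glycine transporter gene Slc6a9 stood at 59.9 against 12.2 CPM and Slc1a4 at 62.3 against 18.3. The tRNA charging genes differed least. Their median log2 ratio was 0.74 and 3 of 14 passed 2-fold, Wars at 73.8 against 30.8 CPM, Nars at 299 against 144 and Yars at 141 against 68.6, while Mars and Vars had log2 ratios of -0.05 each.

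**Figure D2:**
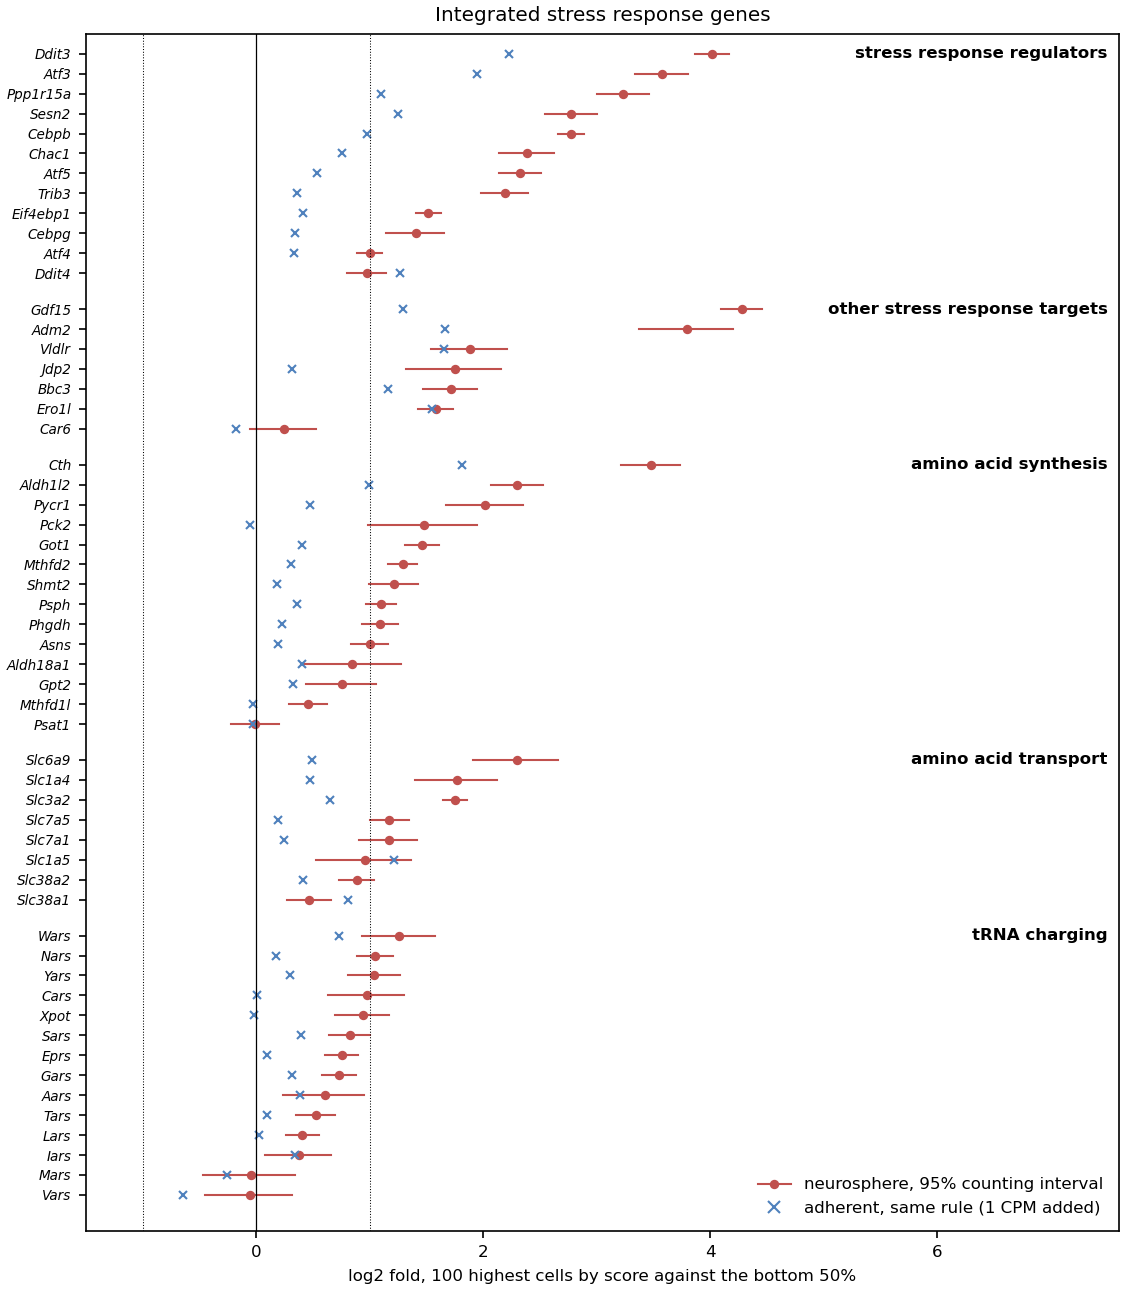
Points give the log2 fold of each measured gene of the 5 stress response lists in the 100 members against the bottom 50%, with the exact 95% counting interval, and crosses the log2 ratio in adherent cells chosen by the same score. In neurospheres the regulators run from 0.97 to 3.97 as log2 ratios and the tRNA charging genes from -0.05 to 1.23.

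The chaperones of the endoplasmic reticulum did not follow. None of 19 measured genes was more than 2-fold higher, against 5.84% of all genes, and the median log2 ratio was -0.12, between -0.31 and -0.07 under every alternative run. Hspa5, which encodes BiP, the main chaperone there, stood at 1040 against 574 CPM, a log2 ratio of 0.86, and Herpud1 at 228 against 128. Dnajb9 and Xbp1 had log2 ratios of 0.78 and 0.61. In contrast, Manf stood at 604 against 872 CPM, Calr at 404 against 535 and Hsp90b1 at 886 against 1103. By these counts the name of stress cells held for the regulators, for most of the other measured targets and for part of the amino acid genes, and 3 of 14 tRNA charging genes and none of 19 chaperones passed 2-fold.

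Cell by cell, the summed level of 62 listed stress response genes outside the rule had a median of 12418 CPM in members, from 1972 to 24259. The median of the bottom 50% was 4177 CPM and its 95th percentile 8036 CPM, which 82 of 100 members exceeded (interval 73.1 to 89.0). Members were few among all the cells that exceeded it, 82 of 423 in the library, or 19.4%. The adherent cells had a median of 9972 CPM. The level was lower along the ranking, from 14258 CPM in ranks 1 to 25 and 10708 in ranks 51 to 100 to 6718 in the next 100 cells and 4232 in cells with a score of 0. Cells of ranks 501 to 1015 had 5626 CPM, above the 5012 CPM of ranks 201 to 500, and were the deepest, with a median of 20778 UMIs.

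**Figure D3:**
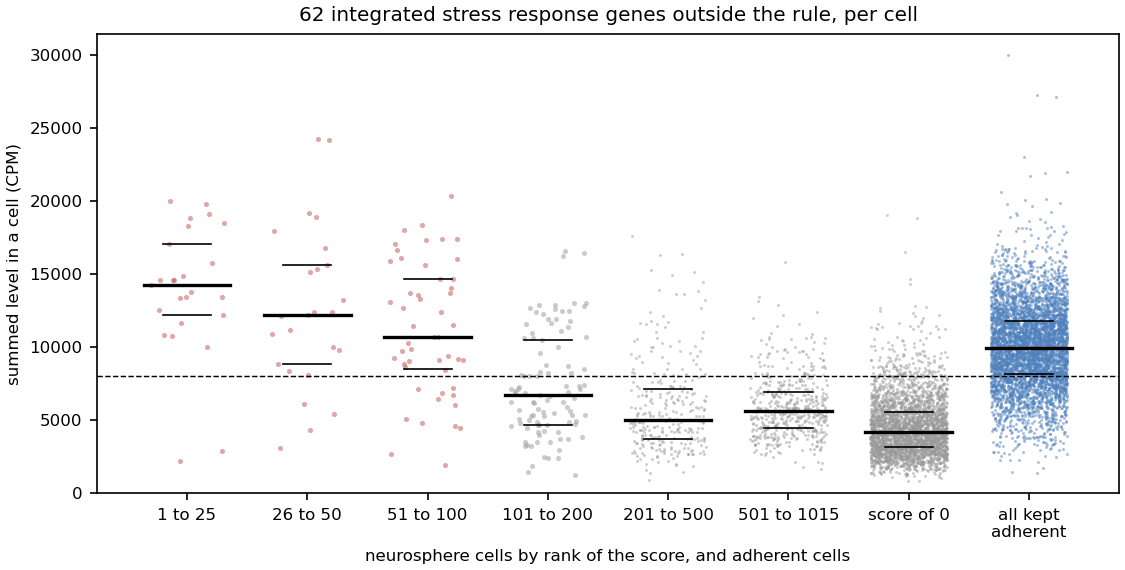
Each point is a cell, plotted by its rank of the score and its summed level of 62 stress response genes in CPM; thick lines are medians, thin lines quartiles and the dashed line the 95th percentile of the bottom 50%. Of the 100 members (red) 82 lie over the line at 8036 CPM, and adherent cells (blue) have a median of 9972 CPM.

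The summed level differed with the number of rule genes held, without a steady order. Its median was 8477 CPM in members with 1 rule gene, 10030 with 2, 14623 with 3, 13409 with 4 and 16424 with all 5. The 82 came from 9 of 15 members with 1 rule gene, 20 of 29 with 2, 22 of 25 with 3, 23 of 23 with 4 and 8 of 8 with all 5. Depth moved with this order, from a median of 8092 UMIs in members with 1 rule gene to 16294 in those with 5, and its part was not tested. The 18 members at or under the 95th percentile had a median of 4954 CPM of stress response genes at a depth of 10110 UMIs, and a median of 6.5 UMIs of rule genes against 10.5 in the other 82. These 18 cells were members by the score and lay at or under the 95th percentile of the bottom 50%, whose highest cell had 16510 CPM.

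When cells were placed by their expression without the rule genes, 28.8% of the 30 nearest neighbours of a member were members. The share was 6.57% for the next 100 cells and 0.441% for the bottom 50%, and members were 2.32% of the other kept cells. For 10 members no neighbour was a member. Of the next 100 cells, 49 had no member among their neighbours. The 100 cells thus lay near each other in part, and members were fewer among the neighbours of the cells that followed them in rank.

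Cell cycle genes were lower in members. Of 19 measured G1/S genes, 11 were more than 2-fold lower, against 2.25% of all measured genes, all 19 were below 0 and the median log2 ratio was -1.08. Rrm2, a subunit of ribonucleotide reductase, stood at 24.6 against 79.8 CPM, the replication helicase gene Mcm4 at 18.9 against 57.6 and Ccne1, cyclin E1, at 13.9 against 40.3. All 18 G2/M genes were below 0, with a median log2 ratio of -0.55 and none past 2-fold. Taken per cell, the summed G2/M level had a median of 510 CPM in members and 2664 CPM in the bottom 50%, and 5 members exceeded the 95th percentile of the bottom 50%. Of the p53 targets, Cdkn1a, the cyclin-dependent kinase inhibitor p21, stood at 642 against 232 CPM and was seen in 93 members, and 3 of 12 measured targets, without Plk2, which passed the filter through the members alone, were more than 2-fold higher with a median of 0.20.

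NRF2 targets, which defend against oxidants, were mixed. Of 18 measured genes besides Gstm1, which passed the filter through the members alone, 4 were more than 2-fold higher, with a median log2 ratio of 0.42. Hmox1, haem oxygenase, had the largest log2 ratio of the list, with 1463 UMIs or 1200 CPM against 49.7 in the bottom 50%, and 77 members held it. Of these UMIs, 1179 came from the eleventh member, and without that cell Hmox1 stood at 237 CPM in members. With each gene's highest cell left out of both groups, the log2 ratio of Hmox1 was 2.24. Prdx1, a peroxiredoxin, stood at 4867 against 2133 CPM with the eleventh member included, and its log2 ratio with the highest cells left out was 0.12. Sqstm1, the autophagy receptor p62, stood at 618 against 172 CPM, with a log2 ratio of 1.61 on the same reading. Srxn1 stood at 70.5 against 20.1 CPM. Gclc and Gsr, both of glutathione supply, had log2 ratios of -0.34 and -0.10.

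The eleventh member was a case of its own, chosen for description after its values were seen. It held 21834 UMIs, of which 3164 were Prdx1, 1349 Cryab, 1179 Hmox1 and 523 Ftl1, along with 45 of Slc7a11 and 185 of Nppb. Its levels of Gclm, Txnrd1, Txn1, Pgd and Sqstm1 ranked first among the 100 members. Of other NRF2 targets it held 1 UMI each of Gclc and Me1, and Taldo1 ranked 41. It held none of Nqo1, Osgin1, G6pdx, Gstm1, Gsta4 or Abcc1. All of these but Taldo1 also had a median of 0 CPM over the members. The cell held no UMI of Nupr1, Steap1 or Tenm4 and 1 of Cox6a2. Its summed stress response level, 10030 CPM, was below the median of the members, and its genes were spread over the ranks. By CPM among the 100 members, Chac1 ranked 2, Eif4ebp1 3, Gdf15 4 and Atf4 10, Ddit3 at 229 CPM lay near the median of 224, and Cebpb ranked 54, Ppp1r15a 69, Atf5 75 and Ddit4 77. The large counts of Prdx1, Cryab, Hmox1 and Ftl1 in this cell lower the CPM of every other gene in it. The Slc7a11 of this cell thus came with part of the listed oxidant defence genes and with few UMIs of the other rule genes.

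Relatives of the other rule genes are given by their levels. Of 12 measured cytochrome c oxidase subunits, none passed 2-fold in either direction, a count near the 5.84% and 2.25% of all genes, with a median log2 ratio of -0.11. Cox6a1, the form of the same subunit found in most tissues, stood at 273 against 264 CPM. None of 10 muscle genes was measured, and 5 of the 10, among them Myod1 and Myog, had 0 UMIs in members. Of the relatives of Tenm4, Tenm3 stood at 207 against 173 CPM, and the teneurin receptor gene Adgrl3 at 299 against 524. Of 10 measured iron and ferroptosis genes, Gpx4, the lipid peroxide reductase, stood at 721 against 322 CPM and the Steap1 relative Steap3, which passed the filter through the members alone, at 18.05 against 5.21, while the transferrin receptor gene Tfrc stood at 24.6 against 47.1, and the list had a median of -0.33, or -0.36 without Steap3. The median was 0.02 with the top 200 cells and 0.37 with a mean CPM of at least 50. Steap2, below the filter, had 18 UMIs in members and stood at 14.8 against 2.35 CPM, a log2 fold of 2.65 (1.81 to 3.42), and Steap4 had 0 UMIs in both groups.

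Oligodendrocyte, cartilage matrix, cholesterol synthesis and neurosphere genes were lower in members. Of 12 measured oligodendrocyte genes, 4 were more than 2-fold lower with a median of -0.75, among them Cnp (180 against 599), Mbp (59.1 against 156) and Bcas1 (133 against 316). Of 8 cartilage matrix genes, 6 were more than 2-fold lower with a median of -1.12, among them Col9a1 at 394 against 1044 CPM and Col11a1 at 1102 against 2439. All 16 cholesterol synthesis genes were below 0, with a median of -0.58 and 2 past 2-fold, Hmgcs1 (113 against 255 CPM) and Nsdhl (53.3 against 134). Among 6 genes listed from earlier results of these libraries as higher in neurospheres than in adherent cells, which is no independent evidence, 5 were more than 2-fold lower in members, Krt18 being measured through the bottom 50% alone, with Krt8 at 1483 against 3026 CPM, Dll3 at 82.0 against 266 and Ptgds at 1063 against 1054. Of genes higher in adherent cells, S100a4, measured through the members alone, stood at 30.3 against 1.77 CPM, with 51.4% of its UMIs in 1 member, and Lgals1 at 3051 against 2295, both far below the 346 and 10663 CPM of adherent cells.

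Interferon-stimulated genes were higher in members, 8 of 10 measured past 2-fold with a median log2 ratio of 1.20. Isg15 stood at 822 against 338 CPM and was seen in 90 members, Bst2 at 969 against 443 and Ifi44 at 88.6 against 16.5. Cxcl10 stood at 126 against 18.3 CPM but was seen in 15 members. All were lower than in adherent cells, where Isg15 stood at 1928 CPM, Bst2 at 4016, Ifi44 at 140 and Cxcl10 at 295.

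**Figure D4:**
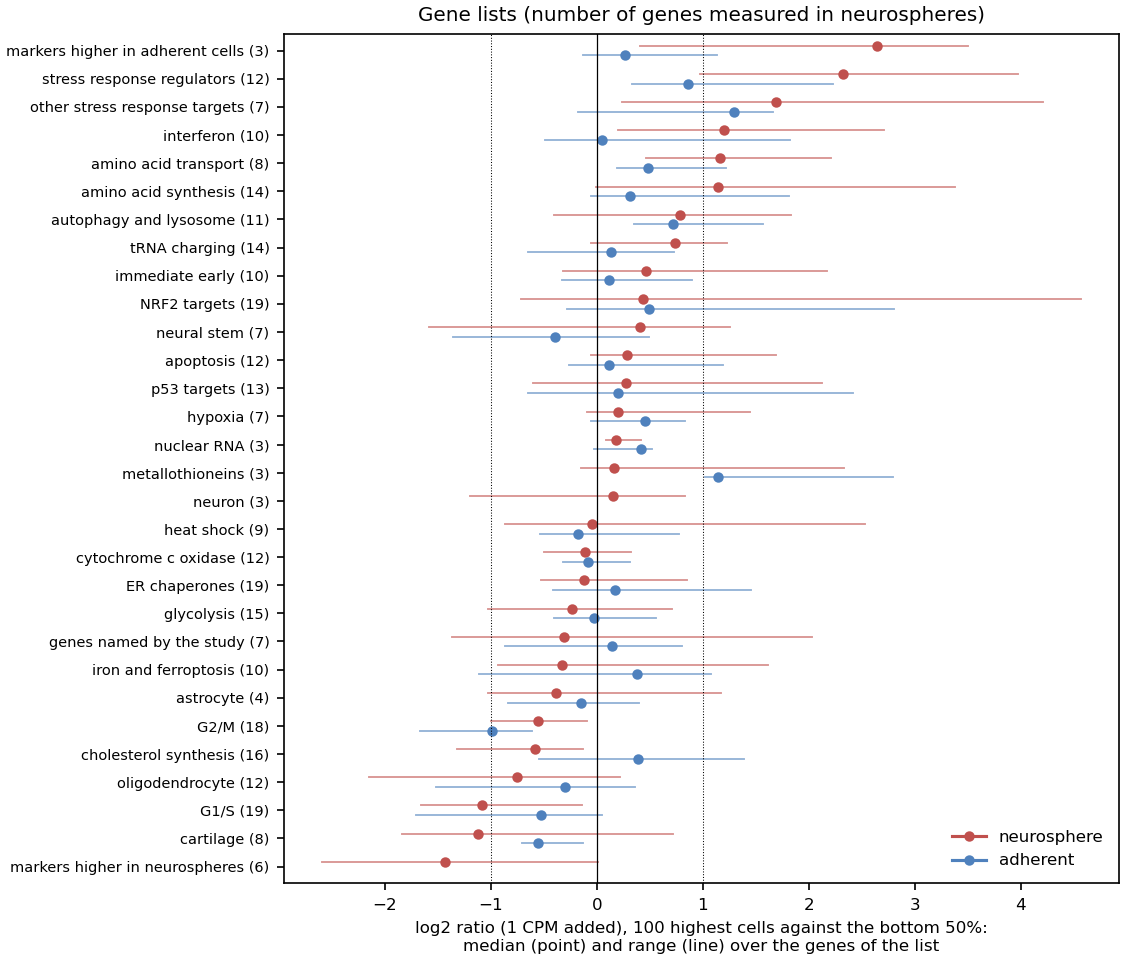
For each gene list, points give the median and lines the range of the log2 ratio (1 CPM added) of the 100 highest cells by the score against the bottom 50%, in neurospheres (red) and in adherent cells (blue), with the number of measured genes in parentheses. Stress response regulators have medians of 2.32 and 0.87, interferon genes 1.20 and 0.05, and G1/S genes -1.08 and -0.52.

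In the adherent library the top 100 cells by the same score were set against the bottom 50%, 2525 cells, which there held rule genes as well. Of 8210 measured genes, 313 (3.81%) were more than 2-fold higher and 242 (2.95%) more than 2-fold lower. The stress response regulators had 5 of 12 past 2-fold with a median of 0.87, led by Ddit3 at 1218 against 260 CPM and Atf3 at 185 against 47.4, and the other targets 5 of 7 with a median of 1.29. Amino acid synthesis had 1 of 14 with a median of 0.31, transport 1 of 8 with 0.49, and tRNA charging 0 of 14 with 0.14. Per cell, the summed stress response level had a median of 13242 CPM in the adherent top 100 and 9029 CPM in the adherent bottom 50%, the latter above the 95th percentile of the neurosphere bottom 50%.

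Among 7786 genes measured in both libraries, 90 were more than 2-fold higher in both, 20.3% of the 444 in neurospheres and 40.4% of the 223 in adherent cells. Over all 7786 genes, 5.70% were higher in neurospheres and 2.86% in adherent cells. They included Ddit3, Atf3, Gadd45a, Cth, Hmox1, Chchd10, Lcn2 and Spp1. Gadd45a, a growth arrest gene, stood at 248 CPM in members against 18.5 in the bottom 50%, and at 478 against 99.2 in adherent cells. Chchd10, a mitochondrial protein, stood at 141 against 11.5 and at 440 against 60.1. Of lower genes, 19 were shared, 15.6% of 122 and 8.30% of 229, where 1.57% and 2.94% of all genes were lower. Neither overlap was counted without the genes that passed the filter through the higher group alone. The shares therefore do not tell how far the libraries agree on genes over the filter in both groups.

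The genes with the largest ratios were often those of few cells. The 15 largest log2 ratios in members belonged to Nppb, Cxcl2, Ccl2, Ostn, Lcn2, Saa3, Hmox1, Spp1, Ccl7, Gdf15, Ccl20, Cd74, Ddit3, Serpinf1 and Il11. Nppb, a natriuretic peptide, had 185 of its 190 UMIs in the eleventh member and 3 UMIs in the bottom 50%. Cxcl2 had 105 of 107 in a single member and none in the bottom 50%. Its summed level was 859-fold higher when that group was set at a floor of 3 counts, and the lower limit of its log2 fold was 9.42. Ccl2, a monocyte chemokine, had 540 of 740 UMIs in a single member and was seen in 7. Lcn2, lipocalin 2, was seen in 14 members with 214 of 335 UMIs in 1 of them. Of all 530 higher genes, 22 had 50% or more of their UMIs in 1 member.

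The rest of the 15 fell into rare and common genes. Ostn, the musclin gene, was seen in 18 members at 42.7 against 0.136 CPM, Spp1, osteopontin, in 13 at 112 against 4.60 and Cd74, the invariant chain, in 15 at 21.3 against 0.409. Serpinf1 was seen in 15 members, Ccl20 in 9, Saa3 in 7, Il11 in 5 and Ccl7 in 3. Hmox1, Gdf15 and Ddit3 were the genes of the 15 seen in more than 70 members. Of 8 immune markers, 7 had 0 UMIs in members, Ptprc and Csf1r among them. The other, Cd68, had 17 UMIs, and the list summed to 13.9 CPM in members, 3.58 in the bottom 50% and 10.7 in adherent cells.

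**Figure D5:**
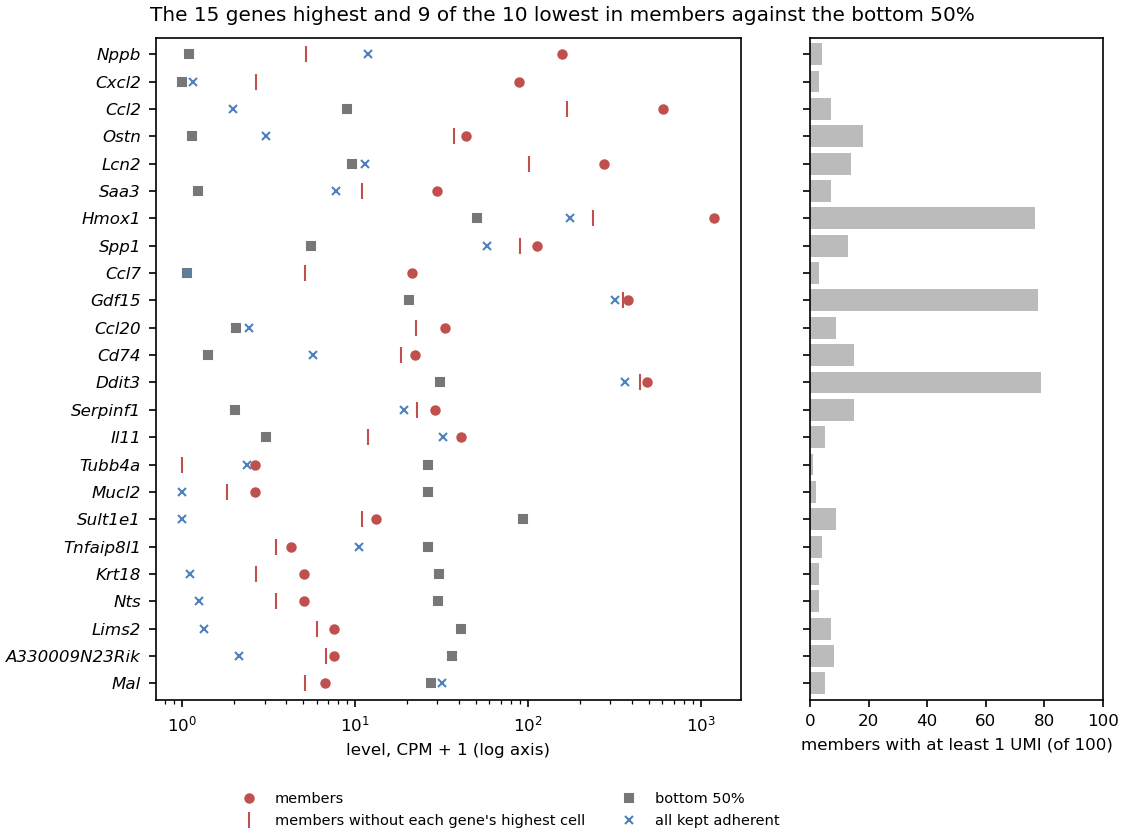
The left panel gives the level (CPM + 1, log axis) of the 15 genes with the largest and 9 of the 10 with the smallest log2 ratios in members, in members without each gene's highest cell, in the bottom 50% and in adherent cells, and the right panel the number of 100 members with at least 1 UMI. Hmox1, Gdf15 and Ddit3 are seen in 77, 78 and 79 members, while Nppb, Cxcl2 and Ccl7 are seen in 4, 3 and 3.

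Among the 10 smallest ratios were those of Tubb4a, Mucl2, Sult1e1, Tnfaip8l1, Krt18, Nts, Lims2, A330009N23Rik and Mal. Sult1e1, an estrogen sulfotransferase, stood at 12.3 CPM in members, 35.7 in the next 100 cells and 92.3 in the bottom 50%, and had 0 UMIs in adherent cells. It was seen in 9 members and 28.0% of the bottom 50%. Lims2 was seen in 7 members against 32.4% and A330009N23Rik, an antisense gene, in 8 against 32.6%. Krt18, a keratin, stood at 4.10 against 29.7 CPM, with 5 UMIs in members, and was seen in 3 members and 5.61% of the bottom 50%. Mucl2 was seen in 2 members and 2.29% of the bottom 50%, so its 748 UMIs there came from few cells. Mal stood at 5.74 against 26.5 CPM and was seen in 5 members.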

How the data were processed

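The authors deposited raw UMI counts per gene and cell for each library, whole numbers for 32285 genes, as Cell Ranger 7.0.1 wrote them. Tool and build (mm10) are those of the submitters' processing notes. The gene annotation and the setting for intronic reads are not given in the sources used here.

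From the counts, 13 mitochondrial and 101 ribosomal genes were dropped, and cells with at least 1000 UMIs and 2250 genes (1250 for adherent cells) were kept. The kept cells held 64943938 neurosphere and 46290996 adherent UMIs on the genes left. The members, the gene lists and the comparisons were chosen with earlier results of these data known. UMIs were summed over cells, CPM was per 1000000 of these UMIs, and no p-value was computed. Genes were measured at a mean CPM of at least 10, and 1 CPM was added for log2 ratios. Genes named by rule were the 15 largest and 10 smallest log2 ratios, of which 1 is not reported here; the others are members of 34 lists or were chosen after their values were seen. For shares at equal depth, 5000 UMIs were drawn from each cell, which left out 3 members and 52 cells of the bottom 50%. Neighbours used 2000 variable genes and 18 PCs. Doublets were not called. Cells over the 95th percentile of UMIs were left out as an alternative, which kept all 100 members and so could not test for doublets among them. Gene positions are from GENCODE on GRCm38, where 32044 of 32171 identifiers matched. The steps were tested on simulated data. In all, 21 alternatives were planned and 2 were added after seeing the data. Python 3.11.15, numpy 2.4.6, scipy 1.17.1, scanpy 1.11.5, matplotlib 3.10.9 and, for TMM factors, edgeR 4.0.16 were used.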

Additional observations from a re-analysis of the deposited data

Results flagged for a closer look

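Among gene lists with at least 5 genes measured in each library, the median log2 ratio of the 100 highest cells against the bottom 50% was over 0.3 in size and of opposite sign between the libraries in 3, and the difference was not tested. Smaller medians of opposite sign were those of endoplasmic reticulum chaperones (-0.12 in neurospheres and 0.17 in adherent cells) and of the genes the study named (-0.31 and 0.14). For cholesterol synthesis it was -0.58 in neurospheres, with all 16 genes below 0, and 0.39 in adherent cells, with 12 of 15 above. The iron and ferroptosis list had -0.33 and 0.38, with the first above 0 under 2 alternatives, and the neural stem list 0.41 and -0.39. As a sum per cell, which the most abundant genes of a list lead, the iron and ferroptosis list had a median of 793 CPM in members and 577 in the bottom 50%, higher as in adherent cells, and the neural stem list 1676 and 1717 CPM. In the neural stem list, Sox2 stood at 240 against 181 CPM in neurospheres with a log2 ratio of -0.26 in adherent cells.

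The 675 neurosphere barcodes left out by the cell filter, with a median of 87.0% mitochondrial UMIs, held 100 UMIs of the rule genes among 574706, or 174 CPM (142 to 212), against 43.1 CPM in the kept cells. Those UMIs came from 31 barcodes.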

How the results depend on the processing

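The counts of genes past 2-fold moved most with the filter and the number of members. With a mean CPM of at least 50 they were 160 higher and 78 lower, with no filter 1626 and 636, with the top 200 cells 303 and 70, and with 10 CPM added 303 and 92. The lower count was 375 with the top 50 cells, 125 with cells thinned to 5000 UMIs before scoring, 352 with TMM factors, 364 with median-ratio size factors and 342 with each gene's highest cell left out of both groups, an alternative chosen after seeing the data. Under all other alternatives run, both counts stayed within 1.5 times of 530 and 204. Of 713 list medians under 23 alternatives, 696 kept their sign, and all 575 values of named genes did. The lists that changed sign were iron and ferroptosis, teneurins, hypoxia, glycolysis, heat shock, metallothioneins, neuron and nuclear RNA, and the cause was not tested. With the top 200 cells Nts, Mucl2 and Mal were no longer 2-fold lower, at log2 ratios of -0.29, -0.48 and -0.97. The medians of metallothioneins (0.17) and nuclear RNA (0.18) were -0.02 and -0.01 with median-ratio size factors.

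Dropping 1 rule gene from the score left 79 (without Nupr1) to 93 (without Slc7a11) of the 100 members in place, and scoring on thinned cells left 80. With all cells of score 0 as the comparison, 524 genes were higher and 203 lower. No paired analysis was possible because there was 1 library per culture and no test was run. Depth limits what can be said of single members, 5 of which held no more than 3 UMIs of rule genes.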

Other observations

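Of 11 autophagy and lysosome genes, 3 were more than 2-fold higher with a median log2 ratio of 0.78, Sqstm1, Gabarapl1 (98.4 against 46.7 CPM) and the protease gene Ctsl (727 against 300). Of 7 hypoxia genes, Vegfa (50.0 against 17.7 CPM) and the glucose transporter gene Slc2a1 (325 against 122) were more than 2-fold higher, with a median of 0.20, and 15 glycolysis genes had a median of -0.23 with Aldoc alone past 2-fold, lower in members and measured through the bottom 50% alone (-0.20 without it). Of 10 immediate early genes, 3 passed 2-fold, Ier3, Junb and Dusp1, while Fos stood at 138 against 172 CPM. Of 9 heat shock genes only Cryab passed 2-fold, at 1872 against 324 CPM, with 59.1% of its UMIs in the eleventh member. Its log2 ratio was 1.49 with its highest cell left out of both groups. Hspa8 stood at 991 against 1804 CPM.

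Of 12 apoptosis genes, Bbc3 alone passed 2-fold, with a median of 0.29. Metallothioneins had a median of 0.17 in neurospheres, 0.01 without Mt3 and below 0 with TMM or median-ratio factors, where Mt1 stood at 1619 against 1792 CPM, Mt2 at 627 against 558 and Mt3, seen in 12 members and measured through them alone, at 35.3 against 6.20, and of 1.14 in adherent cells. The measured astrocyte genes had a median of -0.38, or -0.11 without Aldoc, with Slc1a3 at 183 against 80.5 CPM, neuron genes 0.15 and nuclear RNAs 0.18, of which both were below 0 with median-ratio factors. The neuron median, over 3 genes, was also below 0 with TMM factors and with cells matched on depth, and was -1.19 with a mean CPM of at least 50. Among the genes the study named, Mmp2 and P2rx7 were measured through the members alone. Mmp2 stood at 33.6 against 7.495 CPM, P2rx7 at 16.4 against 7.70 and Mmp15 at 52.5 against 137, with a list median of -0.31, or -0.48 without Mmp2 and P2rx7. No endothelial marker was measured, and 2 of 4 had 0 UMIs in members.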
